A study of Mus musculus with 8 samples.

Results

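The levels of 9 genes of the transduction pathway of main olfactory neurons were examined in RNA sequencing of the mouse vomeronasal organ. They were Gnal, Adcy3, Cnga2, Cngb1, Stoml3, Pde1c, Slc24a4, Rtp1 and Rtp2, chosen by name, and each matched 1 of the 27532 genes in the deposited table. The vomeronasal organ, a paired tubular chemosensory organ at the base of the nasal septum, was dissected from 4 adult mice heterozygous for Tex15 and 4 adult Tex15 knockout mice. The heterozygous animals were the controls and themselves carry 1 altered copy, and the design of the allele was not given in the sources used here. Heterozygous replicate 1 was male (11.4 weeks) and replicates 2, 3 and 4 were female (14.6, 11.9 and 11.9 weeks). Knockout replicate 1 was female (11.9 weeks) and replicates 2, 3 and 4 were male (11.9, 11.9 and 12.1 weeks). The animal numbers in the labels were in the 7100s for 6 mice and lower for heterozygous replicates 1 and 2. The date-like numbers that end the sample titles, whose meaning is not stated, also set these 2 control libraries apart from the other 6 and from every knockout library. The model used for the results has no term for this split, and with one the fold changes of Gnal, Adcy3, Cnga2, Stoml3 and Slc24a4 changed sign. That term also moved the median over all genes from 0.19 to −0.32, and before its subtraction the signs of Gnal, Adcy3, Cnga2, Slc24a4 and Rtp1 changed. Values are TPM, an abundance per transcript length that sums to 1000000 in each library. Fold changes are log2, knockout over heterozygous, from limma with genotype and sex as terms, and are given after subtraction of the median over all genes tested.

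In main olfactory neurons an odorant receptor activates the G protein alpha subunit encoded by Gnal, which stimulates the adenylyl cyclase encoded by Adcy3. The cyclic AMP produced opens a channel built from Cnga2, Cnga4 and Cngb1, and the response is ended by enzymes and exchangers such as the products of Pde1c and Slc24a4. Vomeronasal neurons instead couple their receptors to Gnai2 or Gnao1 and a phospholipase C pathway, so Gnal and Cnga2 are commonly read as signs of main olfactory tissue in a dissection of the vomeronasal organ.

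Reads recovered from the steps between low TPM values totalled 17884132 to 26415665 per library. Tex15 stood at 2.72, 2.29, 2.81 and 2.27 TPM in heterozygous replicates 1 to 4 and at 0.870, 1.23, 1.12 and 1.14 TPM in knockout replicates 1 to 4, without overlap. Its limma adjusted p was 0.794. Of 8 fixed marker genes of vomeronasal neurons 7 were listed, and they were detected in every library, with Gnai2 at 114 to 302 TPM and Gnao1 at 11.5 to 30.7 TPM. Heterozygous replicate 2 stood apart from the other libraries. It was the lowest of the 8 for all 7 of those markers and for 53.4% of all 20305 genes tested. It had 34164 TPM of Bpifa1, a secreted airway protein, against 3959 to 12780 TPM elsewhere, but the respiratory list did not move as 1, with 1 of its 4 tested genes highest and 1 lowest there. Myh11, a smooth muscle myosin, was at 7.35 TPM there against 66.3 to 260 TPM elsewhere. The main results for Gnal, Cnga2 and Stoml3, which are highest in this library, are given with and without it. To separate such shifts of a whole library from changes in single genes, TPM was also divided by a factor for each library (median-ratio scaling), and the result is called the scaled level. The divisors ran from 0.666 in heterozygous replicate 2 to 1.39 in heterozygous replicate 3.

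The 9 genes did not vary together. Gnal, Cnga2 and Stoml3 differed by 18-fold, 21.5-fold and 10.4-fold between their highest and lowest library in TPM, and all 3 were highest in heterozygous replicate 2. The other 6 genes differed by 1.84-fold to 2.68-fold. By scaled level the contrast was wider, with 36.2-fold, 43.2-fold and 14.3-fold against 1.5-fold to 2.88-fold. Without heterozygous replicate 2 the scaled ranges were 8.53-fold, 12.9-fold and 4.24-fold against 1.22-fold to 1.8-fold. The division into 3 and 6 genes was made after the values were seen and carries no test. The plot of the members in each library shows the wide spread of these 3 genes beside the narrow spread of the others.

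**Figure D1:**
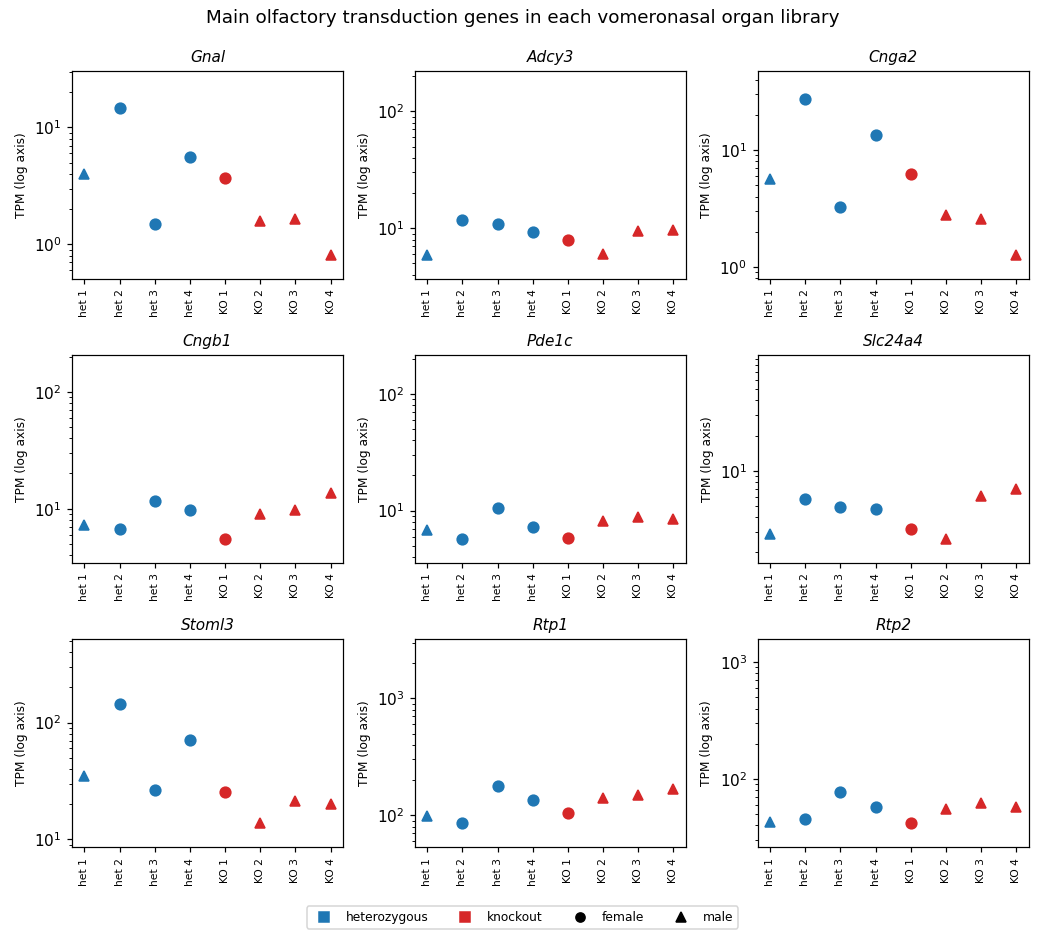
TPM of each of the 9 genes (log axis, every panel covering the same fold range) in the 4 heterozygous (het, blue) and 4 knockout (KO, red) libraries, with circles for female and triangles for male animals. Gnal, Cnga2 and Stoml3 peak in heterozygous replicate 2 at 14.7, 27.3 and 143 TPM, while Rtp1 and Pde1c are lowest there.

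Gnal (chromosome 18, 67088216 to 67226792 in GRCm38) encodes the G protein alpha subunit of main olfactory cilia. Its level was 3.99, 14.7, 1.48 and 5.57 TPM in heterozygous replicates 1 to 4 and 3.72, 1.59, 1.66 and 0.815 TPM in knockout replicates 1 to 4. The groups overlapped, since heterozygous replicate 3 lay below 3 of the 4 knockout libraries. Between 97 and 2354 reads per library supported these values. Its log2 fold change was −1.06 (SE 0.56, 95% interval −2.22 to 0.10), and without heterozygous replicate 2 it was −0.66. It was −0.36 without heterozygous replicate 1 and −1.77 without knockout replicate 1. Among the 7100s animals it was −0.44 without a term for sex and 0.60 with it, and 0.76 with a term for the animal number series. Its direction thus depended on the terms in the model, while it was negative whichever single library was left out.

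Cnga2 (chromosome X, 71991849 to 72010218) encodes the principal subunit of the olfactory cyclic nucleotide-gated channel. It stood at 5.70, 27.3, 3.24 and 13.5 TPM in heterozygous replicates 1 to 4 and at 6.27, 2.80, 2.58 and 1.27 TPM in knockout replicates 1 to 4. Heterozygous replicates 2 and 4 lay above every knockout library, and knockout replicate 1 lay above heterozygous replicates 1 and 3. The lowest library, knockout replicate 4, had 42 reads and the highest 1215. For Cnga2 the log2 fold change was −1.19 (SE 0.55, 95% interval −2.33 to −0.04). Before subtraction of the median it was −0.99, with an unadjusted limma p of 0.0859, so the interval leaves out 0 only after that subtraction. The log2 fold change was −0.80 without heterozygous replicate 2 and −0.67 without heterozygous replicate 1. Among the 7100s animals it was −0.93 without a sex term and 0.23 with it, and with a term for the animal number series it was 0.46.

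Stoml3 (chromosome 3, 53488653 to 53508502) encodes a stomatin-family membrane protein found in olfactory cilia. Its level was 34.6, 143, 26.3 and 70.2 TPM in heterozygous replicates 1 to 4 and 25.7, 13.7, 21.4 and 20.1 TPM in knockout replicates 1 to 4. It was the 1 gene of the 9 whose groups did not overlap in TPM, where 1.4% of all tested genes did not overlap in either direction, 0.926% with all 4 knockout libraries lower and 0.473% with all 4 higher. The separation was narrow, between heterozygous replicate 3 and knockout replicate 1, and by scaled level the groups overlapped, at 18.9 against 26.7. For Stoml3 the log2 fold change was −1.31 (SE 0.46, 95% interval −2.26 to −0.35). Before subtraction of the median it was −1.11, the value that the unadjusted limma p of 0.0248 tests. It was −0.93 without heterozygous replicate 2, and −1.34 with median-ratio scaling, where the SE was 0.73. Among the 7100s animals it was −0.91 without a sex term and −0.41 with it, and its sign turned (0.046) with a term for the animal number series, where the value before subtraction of the median stayed negative (−0.27).

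In limma over all 8 libraries none of the 9 genes passed an adjusted p of 0.05 by genotype (0 of 9, adjusted p = 1 for each), where 119 of 20305 genes (0.586%) were called. Of these 43 were higher (0.212%) and 76 lower (0.374%) in knockout, or 28 and 127 after median-ratio scaling. At an unadjusted p under 0.05 there was 1 of the 9, Stoml3, and 3.1% of all tested genes. The 9 log2 fold changes had a median of −0.22. None of the 9 was called under any of the 22 alternatives, and the lowest limma adjusted p among them was 0.0972, for Stoml3 without heterozygous replicate 3, and the highest for that gene was 1. Fewer cells of a type and less RNA per cell cannot be told apart in whole-organ RNA.

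**Figure D2:**
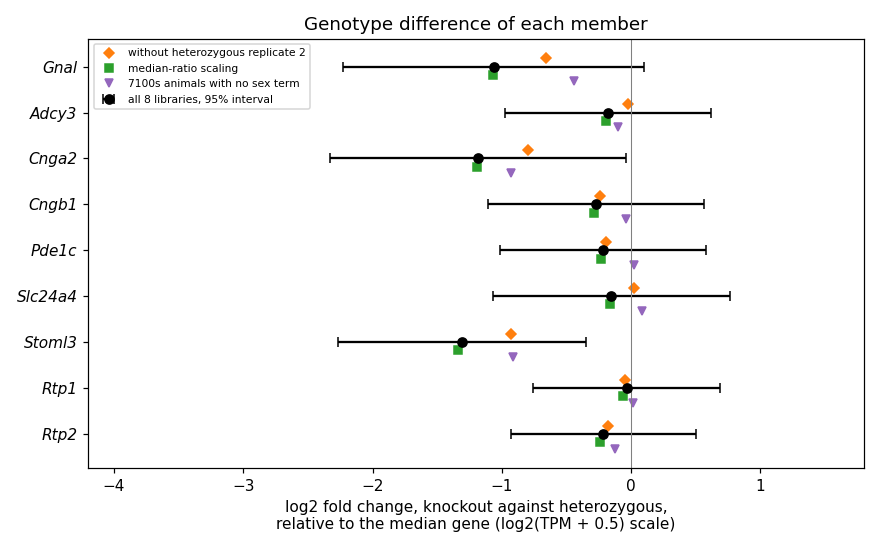
Log2 fold change of each gene in knockout against heterozygous libraries (horizontal axis, median of all tested genes subtracted), with black points and 95% intervals from all 8 libraries and coloured points without intervals from 3 alternatives. Gnal, Cnga2 and Stoml3 lie at −1.06, −1.19 and −1.31, and the other 6 genes lie between −0.27 and −0.03.

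The second messenger enzyme varied less. Adcy3 (chromosome 12, 4133103 to 4213525) encodes the adenylyl cyclase of olfactory cilia and is also made in primary cilia of other cells. It stood at 5.93, 11.8, 10.9 and 9.28 TPM in heterozygous replicates 1 to 4 and at 7.89, 5.97, 9.52 and 9.61 TPM in knockout replicates 1 to 4, with full overlap. By scaled level heterozygous replicate 2 was at 17.7 and the other 7 libraries between 6.89 and 8.41. The log2 fold change was −0.18 (SE 0.38, 95% interval −0.97 to 0.62).

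The channel's modulatory subunit did not follow its principal subunit. Cngb1 (chromosome 8, 95239045 to 95306585) stood at 7.22, 6.64, 11.6 and 9.78 TPM in heterozygous replicates 1 to 4 and at 5.50, 8.93, 9.75 and 13.7 TPM in knockout replicates 1 to 4. Knockout replicate 4, lowest of all for Cnga2, was highest for Cngb1. By scaled level Cngb1 lay between 5.72 and 10.3 in all 8 libraries. The log2 fold change in knockout was −0.27 (SE 0.40, 95% interval −1.11 to 0.56). Cngb1 also gives a longer form in rod photoreceptors, and values per gene do not separate the forms.

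Within a library the ratio of Cnga2 to Cngb1 is unaffected by scaling. It was 0.791, 4.12, 0.278 and 1.38 in heterozygous replicates 1 to 4 and 1.14, 0.314, 0.265 and 0.0926 in knockout replicates 1 to 4, a range of 44.5-fold. Without heterozygous replicate 2 it ran from 0.0926 to 1.38. The third subunit, Cnga4, stayed closer to Cngb1, with ratios of Cngb1 to Cnga4 from 0.363 in heterozygous replicate 2 to 0.843 in knockout replicate 4. The ratio of Gnal to Adcy3, the G protein and the cyclase it stimulates, was 0.673, 1.24, 0.136 and 0.60 in heterozygous and 0.471, 0.266, 0.174 and 0.0847 in knockout replicates 1 to 4. In both of these ratios the 4 highest libraries were heterozygous replicates 1, 2 and 4 and knockout replicate 1, and the groups overlapped.

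**Figure D3:**
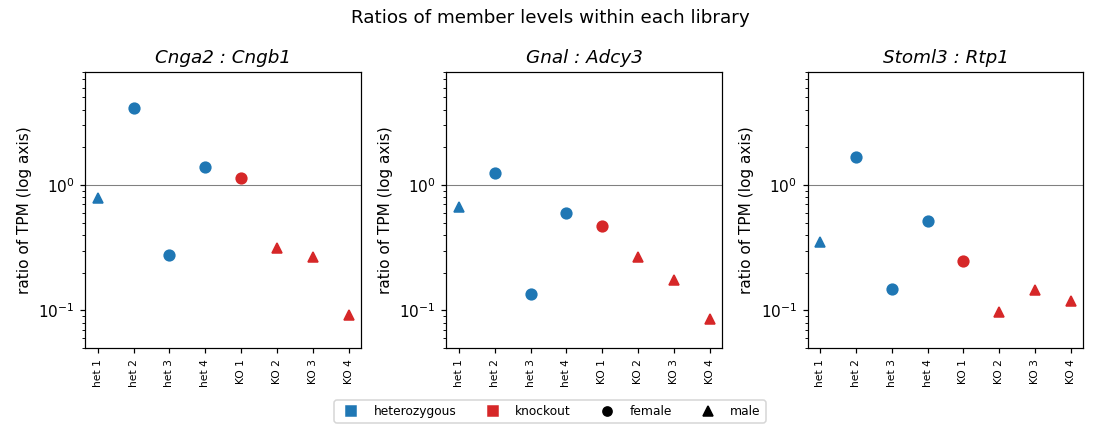
Ratios of TPM within each library (log axis) for Cnga2 to Cngb1, Gnal to Adcy3 and Stoml3 to Rtp1, with 1 point per library, blue for heterozygous and red for knockout, circles for female and triangles for male. Heterozygous replicate 2 is highest in all 3 panels, at 4.12, 1.24 and 1.68, and the other libraries overlap between the groups.

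Promoter sequence is shown for 4 members, the wide-ranging Cnga2 and Stoml3 and the less variable Cngb1 and Rtp2, so that the 2 kinds can be set side by side. Sequences are from RefSeq (GRCm38.p6), read 5′ to 3′ toward the gene and ending at the annotated start or before the first annotated exon base, with matches to CCCNNGGG in capitals.
Cnga2, chrX:71991599-71991848, plus strand: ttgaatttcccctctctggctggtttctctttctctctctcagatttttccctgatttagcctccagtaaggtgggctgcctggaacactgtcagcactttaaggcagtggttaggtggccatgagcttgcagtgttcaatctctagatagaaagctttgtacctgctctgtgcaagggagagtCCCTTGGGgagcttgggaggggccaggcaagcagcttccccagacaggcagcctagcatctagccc
Stoml3, chr3:53488457-53488652, plus strand: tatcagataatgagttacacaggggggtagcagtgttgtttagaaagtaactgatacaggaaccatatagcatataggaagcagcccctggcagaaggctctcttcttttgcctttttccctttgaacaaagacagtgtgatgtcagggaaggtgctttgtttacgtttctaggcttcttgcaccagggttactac
Cngb1, chr8:95306586-95306835, minus strand: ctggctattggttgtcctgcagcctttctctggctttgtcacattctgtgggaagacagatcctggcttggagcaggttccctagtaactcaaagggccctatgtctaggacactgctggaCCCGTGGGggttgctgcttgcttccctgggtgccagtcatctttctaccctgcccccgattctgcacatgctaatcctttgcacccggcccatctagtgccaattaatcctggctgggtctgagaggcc
Rtp2, chr16:23930795-23931044, minus strand: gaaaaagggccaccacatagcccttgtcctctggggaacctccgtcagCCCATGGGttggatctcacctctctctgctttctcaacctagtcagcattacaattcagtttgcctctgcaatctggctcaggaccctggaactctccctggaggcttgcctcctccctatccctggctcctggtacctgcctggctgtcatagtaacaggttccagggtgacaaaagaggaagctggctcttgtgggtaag
EBF proteins, regulators of olfactory neuron genes, bind sites of this general form. The 250 bases before the start were searched in the 10 windows of the 7 members matched, on both strands, since each motif reads the same on either. CCCNNGGG occurred in Cnga2 (66 bases before the start), Slc24a4 (109), Cngb1 (129) and Rtp2 (202), so in 4 of the 10 windows of members (4 of 7 members), and in 11.8% of 32851 windows of all genes. The same letters with T before and A after them, a longer form of the site, occurred in 0 of the 10 windows and in 0.779% of all windows. The homeodomain motif TAATTA occurred in 0 of the 10 windows and 4.84% of windows. The short motif was thus present in members of both kinds and was not found in the window of Stoml3. A match describes letters in a window, not binding. The window of Slc24a4 begins within an annotated exon, as does an Adcy3 window, and whether the Slc24a4 match lies outside exons is not shown. In GENCODE M21 the Rtp2 gene starts upstream of the RefSeq start, and the bases shown lie within its span and outside its exons.

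Of the genes that end the response, Pde1c (chromosome 6, 56069804 to 56569103) encodes a calmodulin-dependent phosphodiesterase that degrades cyclic AMP. It stood at 6.78, 5.71, 10.5 and 7.29 TPM in heterozygous and at 5.84, 8.19, 8.82 and 8.5 TPM in knockout replicates 1 to 4. Heterozygous replicate 2 was the lowest of the 8, but by scaled level it was near the top, at 8.58 within a range of 6.07 to 9.44. For Pde1c the log2 fold change was −0.22 (SE 0.38, 95% interval −1.01 to 0.58). Slc24a4 (chromosome 12, 102128733 to 102267091) encodes a sodium, calcium and potassium exchanger. It stood at 2.85, 5.75, 4.87 and 4.66 TPM in heterozygous and at 3.20, 2.60, 6.12 and 6.97 TPM in knockout replicates 1 to 4, overlapping throughout. By scaled level it was 8.63 in heterozygous replicate 2 and at most 5.21 elsewhere, the widest range of the 6 less variable genes. Its log2 fold change was −0.15 (SE 0.44, 95% interval −1.07 to 0.76).

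Rtp1 and Rtp2 encode membrane proteins that help odorant receptors reach the cell surface. Rtp1 (chromosome 16, 23429133 to 23433960) stood at 98.8, 85.4, 179 and 136 TPM in heterozygous and at 104, 141, 148 and 168 TPM in knockout replicates 1 to 4, lowest in heterozygous replicate 2. By scaled level the 4 heterozygous libraries lay between 123 and 129 and the knockout libraries between 108 and 162, so the low value in that library was not seen on the scaled level. Its log2 fold change was −0.03 (SE 0.35, 95% interval −0.76 to 0.69), and its sign changed under 6 of 22 alternatives. Rtp2 (chromosome 16, 23925548 to 23932394) stood at 42.6, 45.2, 77.7 and 57.2 TPM in heterozygous and at 41.8, 54.9, 62.3 and 57.6 TPM in knockout replicates 1 to 4. Its log2 fold change was −0.21 (SE 0.34, 95% interval −0.93 to 0.50). The ratio of Rtp1 to Rtp2 ran from 1.89 in heterozygous replicate 2 to 2.93 in knockout replicate 4.

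In mean TPM over the 8 libraries (SD, n = 8) the order was Rtp1 (132 ± 33.7), Rtp2 (54.9 ± 12.0), Stoml3 (44.4 ± 43.5), Cngb1 (9.15 ± 2.71), Adcy3 (8.86 ± 2.13), Cnga2 (7.84 ± 8.76), Pde1c (7.71 ± 1.63), Slc24a4 (4.63 ± 1.62) and Gnal (4.19 ± 4.54). Rtp1 exceeded Rtp2 and Stoml3 exceeded Cngb1 in all 8 libraries. This order is over both genotypes. In the heterozygous libraries Stoml3 averaged 68.6 TPM, above Rtp2 at 55.7 TPM, and Cnga2 averaged 12.5 TPM, above Adcy3 and Cngb1. Both orders held in heterozygous replicates 2 and 4 and were reversed in heterozygous replicates 1 and 3. Without heterozygous replicate 2 the means over 7 libraries were 30.3 TPM for Stoml3, 5.06 TPM for Cnga2 and 2.69 TPM for Gnal. Neighbours from Cngb1 to Pde1c did not differ beyond their spread, nor did Slc24a4 and Gnal, which each led in 4 libraries. Summed over the 9 genes the libraries held 208, 346, 326 and 313 TPM (heterozygous) and 204, 240, 270.0 and 287 TPM (knockout). Stoml3 made up 41.4% of that sum in heterozygous replicate 2, where its share elsewhere was 5.74% to 22.4%, while Rtp1 made up 24.7% there and 43.3% to 58.8% elsewhere. The sum was therefore mainly Rtp1, Rtp2 and Stoml3 and hid the spread of Gnal and Cnga2. Levels per length rest on the length assigned to each gene, and a long merged exon length such as that of Pde1c or Gnal lowers the value.

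Other genes of the main olfactory pathway, from a list of 14, also varied to different degrees, from 1.63-fold (Cnga4) to 16.2-fold (S100a5) in TPM between libraries. None of the 14 was called by genotype (0 of 14, with 1, Omp, at an unadjusted p under 0.05), and the median of their log2 fold changes was −0.19. S100a5, a calcium-binding protein of active olfactory neurons, stood at 142, 402, 54.5 and 183 TPM in heterozygous and 126, 82.7, 57.7 and 24.8 TPM in knockout replicates 1 to 4. Ric8b, an exchange factor for the Gnal product, was at 22.0 TPM in heterozygous replicate 2 and 6.97 to 14.5 TPM elsewhere, and Gng13, a G protein gamma subunit, at 79.2 and 26.9 to 38.3 TPM. The channel genes Cnga4 (11.2 to 18.3 TPM) and Ano2, a calcium-activated chloride channel (17.0 to 30.0 TPM), varied less. Grk3, a receptor kinase, was lowest in heterozygous replicate 2, at 3.78 TPM, and reached 18.2 TPM elsewhere. In TPM heterozygous replicate 2 was highest for 4 and lowest for 8 of these 14 genes, highest for 4 and lowest for 2 of the 9 members, and highest for 3.6% and lowest for 53.4% of all tested genes. By scaled level it was highest for 7 of the 14, for 6 of the 9 members and for 26.7% of all tested genes, so this tally depended on the scaling. Omp, the olfactory marker protein of mature main and vomeronasal neurons, was low in heterozygous replicate 1, at 66.6 TPM, where the remaining 7 libraries held 571 to 943 TPM. Its log2 fold change of 1.28 (limma unadjusted p = 0.0118, adjusted p = 0.702) rests on that 1 library, which weighs 0.5 in the genotype coefficient. Without it, in a fit added after the values were seen, the log2 fold change was −0.40 (SE 0.45, limma adjusted p = 1). The labels give no genotype at Omp, so whether this animal carries a change in that gene is not known here. Gfy, a Golgi protein of olfactory neurons, was not low in that library, at 410 TPM within a range of 241 to 879 TPM.

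Among 7 regulators of olfactory neuron genes 0 were called. Lhx2, Emx2, Ebf1, Ebf2, Ebf3 and Ldb1 were lowest in heterozygous replicate 2 in TPM, and by scaled level they ranged by 1.30-fold to 1.96-fold. Ebf4 was the exception, at 6.44 TPM in heterozygous replicate 2 and 1.73 to 4.50 TPM elsewhere. The nearest patterns to the mean log2 level of the 9 members, over 8 libraries and 15488 genes, were those of Ric8b (Pearson r 0.97), Kcnc4 (0.97), Gm4869 (0.95), Depdc7 (0.91), Ebf4 (0.91) and Bpifb9b (0.90). Without heterozygous replicate 2 they were Ramp3 (0.96), Tmsb15b1 (0.96), Rnd2 (0.96), H4c11 (0.96), Igkv6-20 (0.95) and Gm4869 (0.94), so Gm4869 was the 1 gene in both rankings. These coefficients describe libraries that share their scaling and carry no test.

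Odorant receptors and markers of supporting cells were read beside the members. These lists were chosen with earlier results of the same libraries known, so they are not independent support. Summed TPM of all 738 odorant receptor entries was 65.4, 393, 66.6 and 145.0 in heterozygous and 181, 146, 154 and 119 in knockout replicates 1 to 4. Heterozygous replicate 2 was highest by far, and the knockout libraries lay above heterozygous replicates 1 and 3. Of the 29 entries that passed the filter on low values 9 were called by genotype, 8 of them higher in knockout. An entry near 0 in 1 group could pass that filter only through the group where it is high, so this count supports nothing beside the 0.586% over all genes. Without these 9 the sums were 41.8, 390, 64.9 and 140 in heterozygous and 32, 31.3, 39.2 and 40.9 in knockout replicates 1 to 4. That removal was decided by the genotype difference and lowers mainly the knockout values, so the order of the libraries in it is not independent of genotype. Entries at 0.5 TPM or more, counted over all 738, numbered 15, 264, 17 and 75 in heterozygous and 23, 15, 19 and 21 in knockout libraries. By this count heterozygous replicates 2 and 4, the 2 libraries highest in Gnal, Cnga2 and Stoml3, were highest. Cyp2g1, a cytochrome P450 of olfactory supporting cells and Bowman glands, was at 77.7, 758, 20.1 and 84.7 TPM in heterozygous and 44.3, 26.5, 28.9 and 37.4 TPM in knockout replicates 1 to 4. Of the whole list for these cells 7 of 8 genes were listed, 0 of 7 were called, 4 were highest in heterozygous replicate 2 in TPM and 7 by scaled level. The list's summed level was 4784, 10594, 5312 and 5557 TPM in heterozygous and 4649, 4086, 7470 and 8208 TPM in knockout replicates 1 to 4. After heterozygous replicate 2 the sum was highest in knockout replicates 4 and 3, so it ordered the other libraries differently from Cyp2g1, Gnal and Cnga2. Vomeronasal neuron markers summed to 205 TPM in heterozygous replicate 2 and to 325 to 519 TPM elsewhere. That library was lowest for all 7 of them in TPM, but for 4 of the 7 by scaled level. By scaled level it was lowest for 4970 of all 20305 tested genes. The blood list summed to 12273 TPM in heterozygous replicate 2 and 2319 to 8215 TPM elsewhere, and the smooth muscle list to 155 TPM and 490 to 1102 TPM. None of the genes tested in the lists for vomeronasal neurons (7), respiratory cells (4), immature neurons (3), progenitors (5), smooth muscle (4), blood (4), vomeronasal glands (3) and guanylyl cyclase D neurons (1) was called by genotype. Of the 3 trace amine receptor entries listed, Taar2 was at 0.246 to 1.10 TPM and was not called. The part of other tissue in the differences between libraries was not tested.

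**Figure D4:**
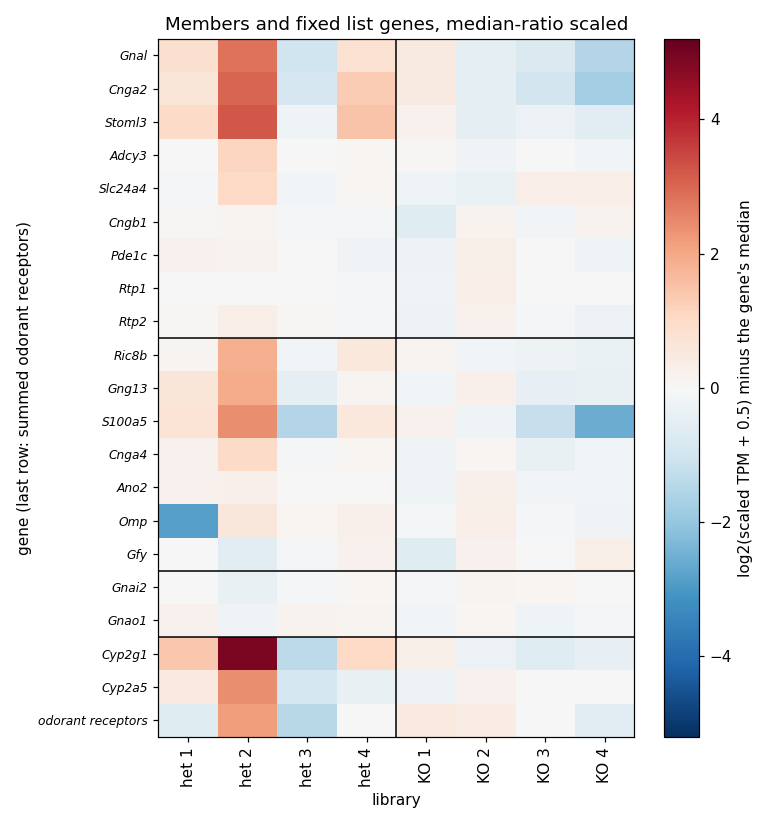
Log2(scaled TPM + 0.5) minus the gene's median over the 8 libraries (colour), for the 9 members, 7 further pathway genes, 2 vomeronasal G protein genes, 2 supporting cell genes and the sum of all 738 odorant receptor entries, with libraries in columns. Gnal, Cnga2, Stoml3, S100a5, Cyp2g1 and the odorant receptor sum are highest in heterozygous replicate 2, where Cngb1, Pde1c and Rtp1 are near their medians.

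By sex, 0 of the 9 genes were called in the same limma fit, where 10 of 20305 genes (0.0492%) were. Cnga2 averaged 12.6 TPM in the 4 female and 3.09 TPM in the 4 male animals, but most females were heterozygous and most males knockout. The fitted log2 difference for male minus female, with genotype as a term, was −1.12 (SE 0.55, limma adjusted p = 1), with no median subtracted. Without heterozygous replicate 2, a female, the female mean was 7.68 TPM and the log2 difference fitted with genotype −0.83 (SE 0.45, limma adjusted p = 1). A term for the genotype difference between sexes called 0 of the 9 (limma adjusted p = 0.914 for each) and 27 of 20305 genes (0.133%). It rests on 1 heterozygous male and 1 knockout female.

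Sequence shared with other genes was limited for most members. All 100-base windows of the transcripts of Cnga2, Cngb1, Stoml3, Pde1c, Slc24a4, Rtp1 and Rtp2 were unique among annotated transcripts (100%). For Gnal 93.4% and for Adcy3 85.0% were unique, and exons of these 2 genes overlap those of Mppe1 and Cenpo on the opposite strand. The libraries were strand-specific, but whether the counting used strand was not given in the sources used here, so reads from these partners cannot be told apart from those of Gnal and Adcy3.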

How the data were processed

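RNA was purified with Trizol and columns from dissected vomeronasal organs of 8 animals, kept at an RNA integrity number above 7, and made into polyA-selected, strand-specific paired-end libraries, per the labels' protocols. The authors deposited 1 table of TPM values, 1 column per library, matched to samples by title with 0 columns unused. Trim Galore 0.6.5, cutadapt 5.1, STAR 2.7.11b and deepTools 3.5.5, with builds mm10 and GRCm38, are named in the submitters' processing notes without roles. The counting program is not given in the sources used here.

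After removal of genes averaging under 0.5 TPM, 20305 remained. Their log2(TPM + 0.5) values were modelled by limma (version 3.58.1, R version 4.3.3, lmFit, eBayes with trend) with genotype and sex as terms. Heterozygous replicate 1 and knockout replicate 1 each weigh 0.5 in the genotype coefficient and the others 0.167. P-values were adjusted by Benjamini-Hochberg over all genes tested and called under 0.05. They test the fitted coefficient. Fold changes are given minus that of the median gene (0.19, or −0.01 after median-ratio scaling), and intervals treat the median as fixed. Fold changes on the log2(TPM + 0.5) scale understate changes of low genes. The script was checked on simulated data. These held no effect of sex or animal series and no shift of a whole library, so the check does not cover them.

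Reads were recovered by multiplying TPM by merged exon length in GENCODE M21 (GRCm38). Between 97.8% and 98.3% of low values fell within 0.05 of a whole read. Lengths were matched for 26729 genes. For a 2 kb gene 3 reads equal 0.0916 to 0.163 TPM, and these depths cover counting error only. P-values measure the spread between animals labelled as separate samples.

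Named genes were the 9 members, Tex15, fixed lists of pathway and cell type genes, and the 6 genes nearest in pattern with and without the library highest in the members' sum. Genes of these lists named beyond the called ones and the 4 most abundant were chosen after their values were seen. The members and lists were chosen with earlier results of these data known.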

Additional observations from a re-analysis of the deposited data

Results flagged for a closer look

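Values far from the other 3 libraries of their group were sought with Dixon's criterion at its 95% critical value, in 118 groups of 4. The groups covered the members, their sum and ratios, and the odorant receptor sums. Of the fixed pathway and cell type lists they covered the 4 most abundant tested genes each, with Cyp2g1, S100a5 and Cnga4. Other list genes named above, among them Gng13, Ric8b, Ano2, Grk3 and Ebf4, were not screened. There were 5 such values in the 118 groups, and chance gives about 1 in 20. For the members' levels themselves there was none (0 of 9 genes in either group). Heterozygous replicate 2 was the distant library for the ratio of Rtp1 to Rtp2, at 1.89 against 2.30 to 2.37 in the other heterozygous libraries. It was also the distant one for 3 genes listed for olfactory supporting cells, namely Cyp2g1 at 758 TPM, Cyp2a5 at 3055 TPM and Sec14l3 at 966 TPM. Knockout replicate 1 was low for Tagln, a smooth muscle gene, at 1.45 TPM.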

How the results depend on the processing

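The count of called members was 0 under every alternative run. With median-ratio scaling the SE rose from 0.56 to 0.87 for Gnal, from 0.55 to 0.88 for Cnga2 and from 0.46 to 0.73 for Stoml3. For the other members the SE fell. The count of genes called by genotype, 119 with all libraries, was 72 with no filter on low values, 371 among the 7100s animals with the sex term and 184 without it, and 83 to 254 when single libraries were left out. By sex the 10 genes became 22 with a replicate block, 178 among the 7100s animals, and 11 to 91 when single libraries were left out. The cause was not tested. The log2 difference of the members' summed TPM was −0.24, −0.43 with median-ratio scaling, −0.51 scaled to Gnai2 and Gnao1, and −0.40 to −0.14 when single libraries were left out.

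Signs of single members changed as follows, after subtraction of the median over all genes. With a term for animal series Gnal was 0.76, Adcy3 0.29, Cnga2 0.46, Stoml3 0.046 and Slc24a4 0.24. Among the 7100s animals with the sex term, which sets knockout replicate 1 against heterozygous replicates 3 and 4, Gnal was 0.60 and Cnga2 0.23. Without it Pde1c was 0.024, Slc24a4 0.082 and Rtp1 0.018. Rtp1 was 0.011 with no filter on low values, and 0.057 with no sex term, with or without a replicate block. When single libraries were left out the ranges were −0.61 to 0.067 for Cngb1, −0.52 to 0.21 for Slc24a4 and −0.23 to 0.16 for Rtp1, and, with no change of sign, −1.77 to −0.36 for Gnal and −1.70 to −0.67 for Cnga2. Without knockout replicate 1 Cngb1, Slc24a4 and Rtp1 were 0.067, 0.21 and 0.16.

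Library numbers are shared between groups, but deviations of same-numbered libraries correlated by −0.06 to 0.10, so they were not treated as paired. With the replicate block and the sex term 128 genes were called by genotype and 0 members, with 130 and 0 without the sex term. In fits added after the data were seen, the Omp difference was −0.40 without heterozygous replicate 1, and the male minus female differences of Gnal, Cnga2 and Stoml3 kept their sign without heterozygous replicate 2, at −0.47, −0.83 and −0.41. Depth limits Cnga2 most, with 42 reads in its lowest library.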

Other observations

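The number of odorant receptor entries with any value above 0 TPM was 278, 713, 362 and 455 in heterozygous replicates 1 to 4 and 114, 174, 155 and 163 in knockout replicates 1 to 4, without overlap between the groups. Knockout replicate 1, the lowest for these entries, also had the fewest reads of the 8 libraries (17884132). Its part in the count was not tested. Knockout replicate 4, with 163 entries, had 23412711 reads, more than heterozygous replicates 2, 3 and 4. Over all 27532 listed genes the number at 0 TPM was 1571, 1358, 1450 and 1432 in heterozygous replicates 1 to 4. It was 2988, 1808, 1650 and 1287 in knockout replicates 1 to 4, so by this number the groups overlapped.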
